A study of Homo sapiens with 8 samples.

Results

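The 9 genes described here encode transcription factors of the dorsal neural tube and the neural plate border, namely PAX3, PAX6, PAX7, MSX1, MSX2, TFAP2A, TFAP2B, TFAP2C and DLX5. They were taken by symbol from a deposited table of 35940 gene symbols, and all 9 had 1 row each. Sequencing of poly(A) RNA gave their levels in wild-type cells of ESI017, a human embryonic stem cell line, during a course that the labels call differentiation to a posterior neural fate. All 8 libraries came from cells held in the serum-free medium N2B27 with the compounds SB (10 µM) and LDN (100 nM). From 34 h the medium also held recombinant human WNT3A at 300 ng/mL, and the groups were the 34 h cells before WNT3A and the cells at 42, 50 and 72 h, which had WNT3A for 8, 16 and 38 h. Each group had 2 libraries, named replicate 1 and replicate 2, and the replicate number is also given as a batch. The series' design text calls the second set an independent biological replicate. The study used 1 cell line, and no cells kept without WNT3A to 42 h or later were analysed here, so time and WNT3A cannot be told apart in any comparison with 34 h. Between the later groups, time and hours of WNT3A cannot be told apart either.

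The neural plate border is the strip between the neural plate and the surface ectoderm, and its cells give rise to the neural crest, the cranial placodes and the dorsal neural tube. WNT, BMP and FGF signals are known to set it up. MSX1, MSX2, PAX3, PAX7, TFAP2A and DLX5 are its usual marks, whereas PAX6 is best known from the neural tube itself and the eye. In the closed neural tube, MSX genes mark the dorsal midline region and PAX3 and PAX7 the dorsal progenitors.

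In these cells the factors did not all reach 1 TPM at the same time, and differences in timing between them were not tested. TFAP2C was present throughout, MSX1 and MSX2 were above 1 TPM in both libraries from 42 h, and PAX3 and PAX6 reached that level at 72 h. TPM corrects for gene length, so levels of different genes can be compared on it. The number of the 9 genes that reached 1 TPM in each library of a pair was 1 at 34 h, 3 at 42 h, 3 at 50 h and 5 at 72 h. PAX7, TFAP2A, TFAP2B and DLX5 stayed below 1 TPM in every library. The 5 factors above it at 72 h were TFAP2C, PAX3, PAX6, MSX2 and MSX1.

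**Figure D1:**
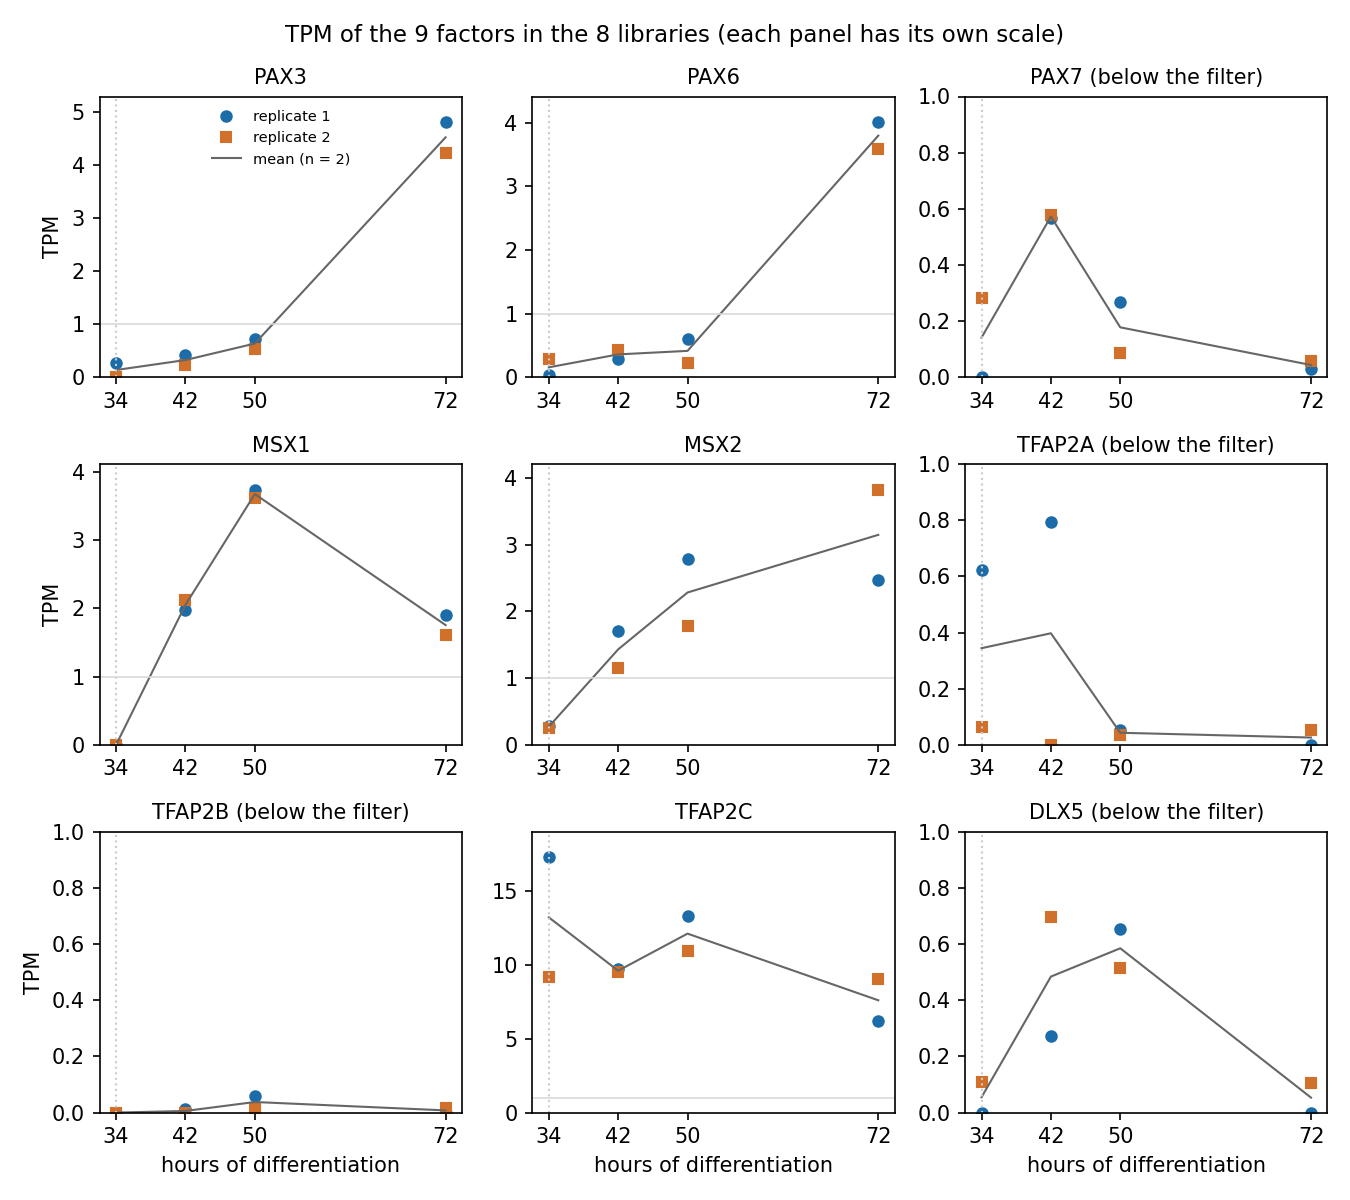
TPM of each of the 9 factors (vertical axis, own scale per panel) against hours of differentiation, with replicate 1 as circles, replicate 2 as squares and the mean of the 2 libraries as a line. MSX1 had its highest mean at 50 h, PAX3 and PAX6 rose between 50 h and 72 h, and 4 factors stayed under 1 TPM throughout.

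The promoters of the 4 factors that changed are shown because they let the start sites behind the early MSX genes and the late PAX genes be compared. Each sequence is the 250 bases before the RefSeq start (GRCh38.p14), written in the direction of the gene, with matches to 4 motifs in capitals. The windows are chr4:4859415-4859664 (plus strand) for MSX1, chr5:174724332-174724581 (plus strand) for MSX2, chr2:222298999-222299248 (minus strand) for PAX3, and chr11:31817962-31818211 (minus strand) for the most upstream of 9 listed PAX6 starts.
MSX1: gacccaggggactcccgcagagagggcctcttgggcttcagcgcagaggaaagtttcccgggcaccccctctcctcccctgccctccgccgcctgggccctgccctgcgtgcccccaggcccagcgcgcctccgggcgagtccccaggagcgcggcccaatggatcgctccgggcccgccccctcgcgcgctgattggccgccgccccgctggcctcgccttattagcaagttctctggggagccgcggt
MSX2: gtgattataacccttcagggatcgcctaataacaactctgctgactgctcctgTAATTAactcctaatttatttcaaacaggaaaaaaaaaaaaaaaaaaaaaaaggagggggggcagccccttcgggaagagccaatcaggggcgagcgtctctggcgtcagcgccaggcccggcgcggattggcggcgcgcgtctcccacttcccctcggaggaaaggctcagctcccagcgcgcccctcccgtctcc
PAX3: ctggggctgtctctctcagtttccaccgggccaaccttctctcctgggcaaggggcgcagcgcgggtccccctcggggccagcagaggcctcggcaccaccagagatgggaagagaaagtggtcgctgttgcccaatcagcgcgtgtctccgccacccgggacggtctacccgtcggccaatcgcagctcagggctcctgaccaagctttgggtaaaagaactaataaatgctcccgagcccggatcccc
PAX6: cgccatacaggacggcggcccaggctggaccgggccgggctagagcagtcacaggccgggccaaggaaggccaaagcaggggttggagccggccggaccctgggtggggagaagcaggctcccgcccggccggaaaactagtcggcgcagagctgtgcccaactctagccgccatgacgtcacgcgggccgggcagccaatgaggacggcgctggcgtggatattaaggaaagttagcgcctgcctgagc
The motifs searched on both strands were CTTTGA (a TCF/LEF core), GCCNNNGGC (the TFAP2 palindrome), TAATTA (a homeodomain core) and CAGGTG (an E-box). The 1 match in these 4 windows was a TAATTA in MSX2, whose first base lies 197 bases before the start, and no 2 matches overlapped. Among 34943 such windows of all listed starts, 11.2% held CTTTGA, 19.7% GCCNNNGGC, 4.35% TAATTA and 17.5% CAGGTG. The MSX1 window had a GC content of 74%, PAX6 68.4%, PAX3 64% and MSX2 55.6%, against a median of 58% over all windows. RefSeq windows were matched for 7 of the 9 factors.

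MSX1 was listed at 0 before WNT3A and was present at every later time. MSX1 (ENSG00000163132; GRCh38 chromosome 4, 4859666 to 4863936, plus strand, protein coding) encodes a homeodomain repressor of the MSX family that acts downstream of BMP and WNT signals. Both libraries before WNT3A listed it at 0; the 42 h pair held 1.98 and 2.12 TPM, the 50 h pair 3.74 and 3.61 TPM, and the 72 h pair 1.897 and 1.62 TPM. No 2 time points overlapped, and the 50 h pair was the highest. Because MSX1 was at 0 at 34 h, no fold change against that time is given. The change from 34 h passed the threshold at 42 h (limma adjusted p 0.0062), at 50 h (0.000735) and at 72 h (0.00214). The 42 h call was lost without replicate 2 of 42 h (limma adjusted p 0.0556, the alternatives spanned 0.00111 to 1).

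At 42 h against 34 h MSX1 was the 1 gene of the 9 that rose, where 2.58% of the 14908 tested genes were called, 1.78% raised and 0.792% lowered. A gene was tested if it had at least 1 TPM in at least 2 libraries, and it was called raised or lowered at a limma adjusted p under 0.05 on log2(TPM + 1), the scale of every fold change given here. Of the 9 factors, 5 passed that filter. PAX3, PAX6, MSX1 and MSX2 passed it only through the later times, when they were high, so those that passed had to differ.

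MSX2 was also above 1 TPM from 42 h, and its change was called from 50 h; a difference in timing from MSX1 was not tested. MSX2 (ENSG00000120149; chromosome 5, 174724533 to 174730893, plus strand), the paralog of MSX1 and a standard BMP-responsive gene, had 0.285 and 0.260 TPM at 34 h. Its 42 h pair held 1.71 and 1.15 TPM, the 50 h pair 2.79 and 1.78 TPM, and the 72 h pair 2.47 and 3.82 TPM. Every later library lay above both 34 h libraries, whereas the 50 h and 72 h libraries overlapped. Its change from 34 h was 0.92 ± 0.28 (SE) at 42 h, which did not pass (limma adjusted p 0.164), 1.35 ± 0.28 at 50 h (0.026) and 1.69 ± 0.28 at 72 h (0.00358). Within replicates 1 and 2 the change at 72 h was 1.43 and 1.94.

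The 50 h call of MSX2 was fragile. It was lost in a fit of 50 h and 34 h by themselves (limma adjusted p 0.0696), with low genes kept (0.0505), and without replicate 1 of 34 h (0.112), replicate 2 of 34 h (0.129) or replicate 1 of 50 h (0.14), and the alternatives spanned 0.0107 to 1. The table also holds the pseudogene MSX2P1, at 1.00 and 1.71 TPM at 34 h and at 0 and 0.812 TPM at 72 h. Reads shared between MSX2 and this copy could be split by the authors' quantification, so the level of MSX2 is uncertain to that extent.

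PAX3 and PAX6 reached 1 TPM later, at 72 h. PAX3 (ENSG00000135903; chromosome 2, 222199888 to 222298996, minus strand), a paired-box factor of the dorsal neural tube and the neural crest, held 0.269 and 0 TPM in the 34 h pair, 0.422 and 0.224 TPM in the 42 h pair, and 0.729 and 0.539 TPM in the 50 h pair. The 72 h pair held 4.81 and 4.24 TPM, above all 6 earlier libraries. The rise was 2.29 ± 0.26 over the whole course (limma adjusted p 0.000572), with 2.20 inside replicate 1 and 2.39 inside replicate 2. Its last step, from 50 h, was a rise of 1.76 ± 0.26 (limma adjusted p 0.00628), with 1.75 and 1.77 inside the replicates. Its changes from 34 h to 42 h (0.23) and to 50 h (0.53) did not pass (limma adjusted p 0.805 and 0.293).

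PAX6 (ENSG00000007372; chromosome 11, 31784779 to 31818062, minus strand), the paired-box factor of forebrain, eye and intermediate spinal cord progenitors, held 0.0270 and 0.281 TPM in the 34 h pair, 0.283 and 0.432 TPM in the 42 h pair, and 0.597 and 0.230 TPM in the 50 h pair. The 72 h pair held 4.01 and 3.59 TPM and stood apart from the 6 other libraries, which were all under 0.6 TPM. PAX6 rose by 2.06 ± 0.27 over the whole course (limma adjusted p 0.00125) and by 1.77 ± 0.27 in the last step from 50 h (0.0073). The table gives 1 value per gene, so the 9 PAX6 starts were not separated.

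On a pseudocount of 0.1 the rises from 34 h to 72 h were larger, 4.59 for PAX3, 4.14 for PAX6 and 3.09 for MSX2, and all 3 passed. Both rises between 50 h and 72 h depended on the scale and on 1 library. With a pseudocount of 0.1 the rises were 2.67 for PAX3 and 3.02 for PAX6 but did not pass (limma adjusted p 0.0731 and 0.0524), and without replicate 1 of 72 h they did not pass either (0.0654 and 0.0702). The alternatives, which include a test for changes beyond 1 on the log2 scale, spanned 0.00315 to 0.912 for PAX3 and 0.0041 to 1 for PAX6. Across the 8 libraries log2 levels of PAX3 and PAX6 had a Pearson correlation of 0.968, and those of MSX1 and MSX2 one of 0.787. Between the families it was 0.748 for PAX3 and 0.698 for PAX6 with MSX2, and 0.29 for PAX3 and 0.228 for PAX6 with MSX1. These values are descriptions over libraries that share their time points.

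**Figure D2:**
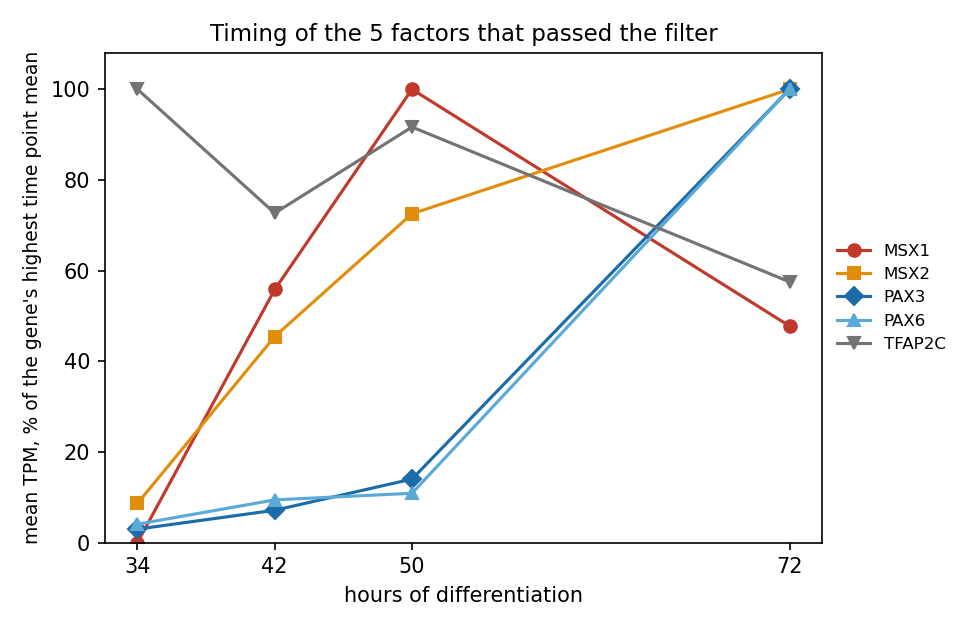
Mean TPM of the 5 factors that passed the filter, as a percentage of each gene's highest time point mean (vertical axis), against hours of differentiation; each point is the mean of 2 libraries. At 50 h MSX1 was at its highest mean and MSX2 at 72.5% of its own, while PAX3 was at 14% and PAX6 at 10.9%.

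Between 50 h and 72 h, then, 2 of the 9 factors rose, PAX3 and PAX6, and 0 fell, where 7.33% of all tested genes were called, 2.92% raised and 4.41% lowered. PAX3 and PAX6 had passed the filter only through their 72 h libraries, so they could not be tested without a rise. The level of MSX1 went the other way, by -0.76 ± 0.21 (-0.71 and -0.82 within the replicates), and this did not pass the threshold (limma adjusted p 0.0719). It passed in a fit without a mean trend in the variance (0.0123, the lowest of the alternatives, which reached 1). At 72 h MSX1 had 47.8% of its 50 h mean.

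Between 42 h and 50 h 0 of the 9 factors changed by limma, where 0.0939% of the tested genes were called, 0.0604% raised and 0.0335% lowered. The 1 factor with an unadjusted p under 0.05 was MSX1 (difference 0.62 ± 0.21, adjusted p 0.418). PAX3 had a difference of 0.31 and MSX2 of 0.43 over the same 8 h.

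Over the whole course, 4 of the 9 factors had changed at 72 h against 34 h, all raised, where 24% of the tested genes were called, 12.7% raised and 11.3% lowered. At 50 h against 34 h 2 of the 9 had, MSX1 and MSX2, where 6.26% of the tested genes were called, 3.52% raised and 2.74% lowered. By a moderated F-test over the 3 comparisons with 34 h, which share the 34 h libraries, the same 4 factors changed at some time (limma adjusted p 0.00121 for MSX1, 0.00188 for PAX3, 0.00393 for PAX6 and 0.015 for MSX2), where 17.4% of the tested genes did. Of the 9, 5 were tested, and these 4 passed the filter only through the times when they were high. Set beside the shares of all tested genes, their calls are a description and no test of the set. Without either replicate of 34 h or either replicate of 72 h, 3 factors passed the F-test.

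TFAP2C was the most abundant of the 9 at every time point. TFAP2C (ENSG00000087510; chromosome 20, 56629302 to 56639283, plus strand) encodes AP-2 gamma, which is known from naive pluripotency, germ cells and early ectoderm as well as from the border. The 34 h pair held 17.3 and 9.16 TPM, the 42 h pair 9.73 and 9.48 TPM, the 50 h pair 13.3 and 10.9 TPM, and the 72 h pair 6.18 and 9.03 TPM. The 34 h libraries differed more from each other than the time point means did, and replicate 2 of 34 h lay just above replicate 2 of 72 h. Its difference at 72 h against 34 h was -0.68 ± 0.28 and did not pass (limma adjusted p 0.117), with -1.35 within replicate 1 and -0.02 within replicate 2. Without replicate 2 of 34 h the difference was -1.11, and without replicate 1 of 34 h it was -0.26, the ends of the range over the alternatives. TFAP2C made up 93.5% and 90.2% of the summed TPM of the 9 factors in the 34 h libraries and 31.8% and 40.1% in the 72 h libraries, and the sum itself was 10.2 to 18.5 TPM at 34 h and 19.4 to 22.5 TPM at 72 h.

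The remaining border factors were at or near 0. TFAP2A (ENSG00000137203; chromosome 6, 10393186 to 10419659, minus strand), AP-2 alpha, an early and central border and crest factor, had at most 0.795 TPM. That value was in replicate 1 of 42 h, where replicate 2 was listed at 0; at 34 h replicate 1 had 0.624 TPM and replicate 2 0.0652 TPM. At 50 h and 72 h TFAP2A was at or below 0.0522 TPM in all 4 libraries. TFAP2B (ENSG00000008196; chromosome 6, 50818723 to 50847613, plus strand), AP-2 beta, a later crest and dorsal factor, had at most 0.0594 TPM and was listed at 0 in 4 libraries.

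DLX5 (ENSG00000105880; chromosome 7, 97020392 to 97024950, minus strand), a distal-less homeodomain factor of the outer border and the placodes, held 0.273 and 0.696 TPM in the 42 h pair and 0.656 and 0.515 TPM in the 50 h pair. At 34 h and 72 h it had 0 in replicate 1 and 0.109 and 0.107 TPM in replicate 2, so the 42 h and 50 h libraries were all higher than those of the end points. PAX7 (ENSG00000009709; chromosome 1, 18631006 to 18748866, plus strand), the paralog of PAX3, held 0 and 0.282 TPM in the 34 h pair and 0.566 and 0.579 TPM in the 42 h pair. Its 50 h pair held 0.268 and 0.0866 TPM and its 72 h pair 0.0277 and 0.0588 TPM, the time when PAX3 was highest. With the filter on low values removed, none of the comparisons of TFAP2A, TFAP2B, PAX7 and DLX5 passed by limma; the lowest adjusted p was 0.112, for DLX5 at 72 h against 50 h.

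Ordered by mean level at 72 h, TFAP2C stood at 7.60 ± 2.01 TPM (SD, n = 2), followed by PAX3 at 4.53 ± 0.409, PAX6 at 3.80 ± 0.303, MSX2 at 3.15 ± 0.956 and MSX1 at 1.76 ± 0.198 TPM. The libraries of PAX6 and MSX2 overlapped, and those of the other neighbours in this order did not. DLX5, PAX7, TFAP2A and TFAP2B followed with means between 0.0533 and 0.0078 TPM, and each overlapped the next in this order. The median tested gene had 15.8 TPM at 72 h. PAX3 lay above 25.95% of the tested genes and TFAP2C above 34.3%. At 50 h the order was TFAP2C, MSX1 and MSX2, with means of 12.1, 3.68 and 2.28 TPM that did not overlap, and no other factor had a mean above 0.634 TPM.

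The other members of the same families were mostly low as well. Of 13 other PAX, TFAP2 and DLX genes 2 passed the filter. PAX2, known from the midbrain-hindbrain boundary and the kidney, held 0 and 0.0664 TPM in the 34 h pair, 4.79 and 0.958 TPM in the 42 h pair, 4.28 and 1.84 TPM in the 50 h pair, and 2.85 and 3.59 TPM in the 72 h pair. PAX2 was the 1 that changed at 72 h, where 12.7% of all tested genes were raised. It rose by 2.03 ± 0.49 (limma adjusted p 0.0209), a call lost on leaving out each of the libraries of 34 h and 72 h singly (0.0782 to 0.107) and with low genes kept (0.0581). PAX8 had between 0.901 and 3.42 TPM and no called change. The DLX genes 1, 2, 3, 4 and 6 had no library above 1.08 TPM, that value being DLX4 in replicate 2 of 72 h.

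Other neural plate border factors ranged widely: 10 of 16 had at least 1 TPM in both 72 h libraries, while GATA2, GATA3, DLX3, DLX6 and PRDM1 were below 1 TPM in every library. Of the 16, 11 were tested, and at 72 h against 34 h 5 rose, 2 fell and 4 did not pass, with a median change of 0.44 against 0.06 for all tested genes, of which 12.7% were raised and 11.3% lowered. These shares of all tested genes are the background for each list at 72 h against 34 h. Some list genes passed the filter only through the times when they were high, so for them a change was built in. SNAI2, NR2F2, WNT3, DBX1, NKX6-1, POU3F2 and PAX2 did so through later times, and FOXD3 through 34 h. GBX2, a homeodomain factor of the anterior hindbrain, rose from 1.26 ± 0.0704 to 115 ± 4.82 TPM, by 5.68 ± 0.16 (limma adjusted p 1.244e-06). IRX1, an Iroquois factor, rose from 13.5 ± 2.34 to 112 ± 11.6 TPM (2.98 ± 0.17, limma adjusted p 1.507e-05). ZIC2, a zinc finger factor of the dorsal neural plate, rose by 0.77 ± 0.088 (limma adjusted p 0.00065). FOXI3, a placode factor, fell from 24.7 ± 1.46 to 12.2 ± 0.344 TPM (-0.96 ± 0.16, limma adjusted p 0.00377). GATA3, a mark of the outer, non-neural side of the border, had 0.0628 TPM in replicate 1 of 34 h and was listed at 0 in the 7 other libraries.

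Neural crest specifiers moved in both directions. Of 15 listed, 13 were tested, and at 72 h 4 rose and 3 fell, with a median change of 0.16 against 0.06 for all tested genes (12.7% raised, 11.3% lowered). SNAI2, a repressor used in crest delamination, rose from 0.350 ± 0.0148 to 6.09 ± 1.27 TPM (2.38 ± 0.24, limma adjusted p 0.000315), and NR2F2, an orphan nuclear receptor, rose from 0.137 ± 0.0396 to 4.05 ± 0.425 TPM (2.15 ± 0.25, limma adjusted p 0.000714). FOXD3, an early crest specifier that pluripotent cells also use, held 4.65 and 4.48 TPM in the 34 h pair and 0 in both of the 72 h pair (limma adjusted p 0.000239). MYB fell by 2.66 on the log2 scale over the same time (limma adjusted p 4.334e-05). SOX10, the lineage mark of migrating crest, had between 2.00 and 3.66 TPM in all libraries and no called change, and SOX9 rose at 42 h (0.91 ± 0.12, limma adjusted p 0.00494) and was back at 16.1 ± 0.0817 TPM at 72 h. The 42 h call of SOX9 was lost with the compared time points alone (limma adjusted p 0.0521) and without replicate 2 of 34 h (0.0524).

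Of the tested roof plate and dorsal genes of the neural tube, OLIG3 rose most on the log2(TPM + 1) scale. Of 18 roof plate and dorsal genes 8 were tested, and at 72 h 3 rose and 3 fell, where 12.7% of all tested genes were raised and 11.3% lowered; the median change was 0.40 against 0.06 for all tested genes. OLIG3, a factor of dorsal hindbrain and spinal cord progenitors, held 6.60 and 6.46 TPM in the 34 h pair, 17.3 and 12.996 TPM in the 42 h pair, 25.9 and 20.9 TPM in the 50 h pair, and 194 and 167 TPM in the 72 h pair. Its rise was 4.58 ± 0.17 from 34 h (limma adjusted p 3.395e-06) and 2.90 ± 0.17 from 50 h (0.00012). WNT3, summed over its Ensembl rows, rose from 0.174 ± 0.107 to 4.62 ± 0.291 TPM (2.26 ± 0.23, limma adjusted p 0.000323). Among roof plate genes, LMX1A was below 1 TPM and GDF7 and WNT1 below 0.5 TPM in every library. LMX1B had between 0.596 and 1.44 TPM, and RSPO1, a WNT agonist, had 0.887 and 0.694 TPM in the 34 h pair and between 1.38 and 1.88 TPM later; neither had a called change. GDF10 held at most 0.292 TPM up to 50 h and 1.78 and 0.838 TPM in the 72 h pair, and was not tested. Of the BMP ligands, BMP4 fell from 6.27 ± 0.203 to 2.23 ± 0.331 TPM (-1.17 ± 0.20, limma adjusted p 0.00393) and BMP7 fell from 24.7 ± 3.74 to 9.10 ± 2.22 TPM (-1.36 ± 0.23, 0.00401). The proneural genes ATOH1, NEUROG1 and NEUROG2 were below 0.5 TPM in all libraries.

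**Figure D3:**
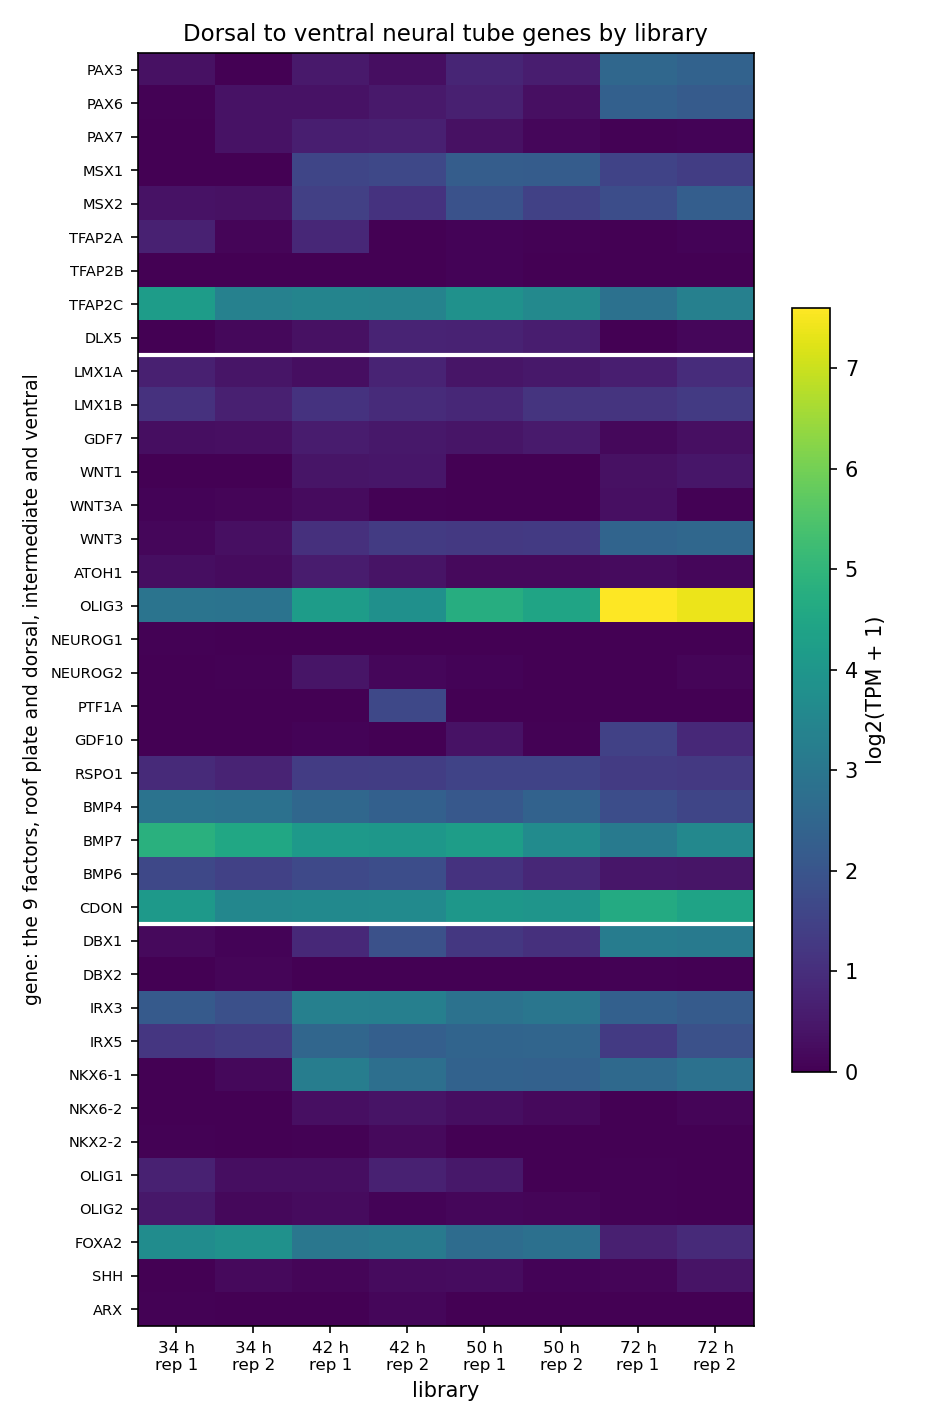
Levels as log2(TPM + 1) (colour) in each of the 8 libraries (columns) for the 9 factors (top block), roof plate and dorsal progenitor genes (middle block) and intermediate and ventral genes (bottom block). OLIG3 had the highest levels of the plot, 194 and 167 TPM at 72 h, and PAX3 and PAX6 were brighter at 72 h than at any earlier time.

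Genes of more ventral positions were partly present. Of 13 listed intermediate and ventral genes 12 had a row under the listed symbol and 5 were tested, and at 72 h DBX1 and NKX6-1 rose, FOXA2 fell and 2 did not pass (12.7% of all tested genes raised, 11.3% lowered). DBX1, an intermediate progenitor factor, went from 0.135 and 0.0565 TPM in the 34 h pair to 8.08 and 7.68 TPM in the 72 h pair (3.02 ± 0.32, limma adjusted p 0.000463). The size of a rise from near 0 depends on the setting. At 72 h against 34 h the alternatives reached 5.38 for DBX1, 5.23 for NKX6-1, 4.68 for PAX2 and 4.14 for NR2F2. NKX6-1, a ventral progenitor factor also used by early caudal neural cells, rose by 2.91 ± 0.22 at 42 h (limma adjusted p 0.00048), with 8.41 and 5.82 TPM, and had 5.08 and 6.15 TPM at 72 h. FOXA2, the floor plate and endoderm factor, fell from 12.7 ± 1.05 to 0.720 ± 0.205 TPM. NKX2-2, OLIG2 and SHH were below 0.5 TPM in every library.

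Markers of the cell types that also use these factors were read in the same libraries. In bulk RNA fewer cells of a type and less RNA per cell cannot be told apart. Of 15 surface ectoderm and placode markers 10 were tested, 0 rose and 5 fell at 72 h against 34 h by limma, where 11.3% of the tested genes were lowered; their summed level was 855 to 941 TPM at 34 h and 383 to 428 TPM at 72 h. Most of that sum was KRT8, KRT18, KRT19 and CDH1, which pluripotent cells also express, and the keratins have near-identical pseudogene copies. At 72 h 9 of the 15 were at 1 TPM or more in both libraries, among them GRHL3 and SIX4, at means of 2.33 and 8.78 TPM and with no called change. TP63, KRT5, KRT14 and GATA3, which define surface ectoderm, were listed at 0 in both 72 h libraries, and at 34 h their means were already low, between 0.0314 TPM (GATA3) and 0.616 TPM (KRT5). Of 9 amnion-like markers, which include TFAP2A and TFAP2C, 2 were at 1 TPM or more in both 72 h libraries, the sum was between 52.0 and 54.2 TPM at 34 h and between 15.2 and 17.3 TPM at 72 h, and GATA3, ISL1 and HAND1 were listed at 0 at 72 h. Most of that sum was KRT7, whose mean was 37.8 TPM at 34 h and 6.22 TPM at 72 h, with TFAP2C itself; of the 3 tested markers KRT7 fell and 0 rose. Between these end points CDX2, which also marks caudal progenitors, held 0.0395 and 0 TPM in the 34 h pair, 8.92 and 6.47 TPM in the 42 h pair, 5.94 and 6.73 TPM in the 50 h pair, and 0.370 and 2.16 TPM in the 72 h pair. It rose at 42 h (3.08 ± 0.37, limma adjusted p 0.0038) and at 50 h (2.85 ± 0.37, 0.00329), times at which MSX1 and MSX2 were above 1 TPM. HAND1 was listed at 0 in the 34 h pair and held 0.833 and 0.778 TPM in the 42 h pair.

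Neural and pluripotency markers changed over the same time. Of 8 neural progenitor markers 7 were tested and 6 rose at 72 h, where 12.7% of all tested genes were raised, and SOX1, the early neural plate factor, rose from 1.89 ± 0.363 to 50.8 ± 7.97 TPM (4.16 ± 0.19, limma adjusted p 6.531e-06). POU3F2, counted among the 6, passed the filter only through its 72 h libraries. Of 7 pluripotency markers, all tested, 4 fell, where 11.3% of all tested genes were lowered, among them POU5F1, which was summed over its Ensembl rows and held 1165 and 1152 TPM in the 34 h pair and 354 and 388 TPM in the 72 h pair. CDH1, the epithelial cadherin, fell by 3.46 on the log2 scale and CDH2, the neural cadherin, rose by 2.20. Of 13 mesoderm and endoderm markers 2 were at 1 TPM or more in both 72 h libraries, with a summed level between 18.1 and 20.5 TPM at 34 h, between 22.0 and 26.6 TPM at 42 h and between 7.42 and 8.45 TPM at 72 h, and MSGN1 and SOX17 were listed at 0 in all 8 libraries. Of the 5 tested, FOXA2 fell from 34 h to 72 h, 0 rose and 4 did not pass, with a median change of -0.11, and FOXA2 made up most of the sum at 34 h. TBXT, which is used in primitive streak and caudal progenitors, rose at 42 h (2.40 ± 0.24, limma adjusted p 0.00149), the time at which MSX1 appeared. The part of these cell types in the changes of the 9 factors was not tested.

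**Figure D4:**
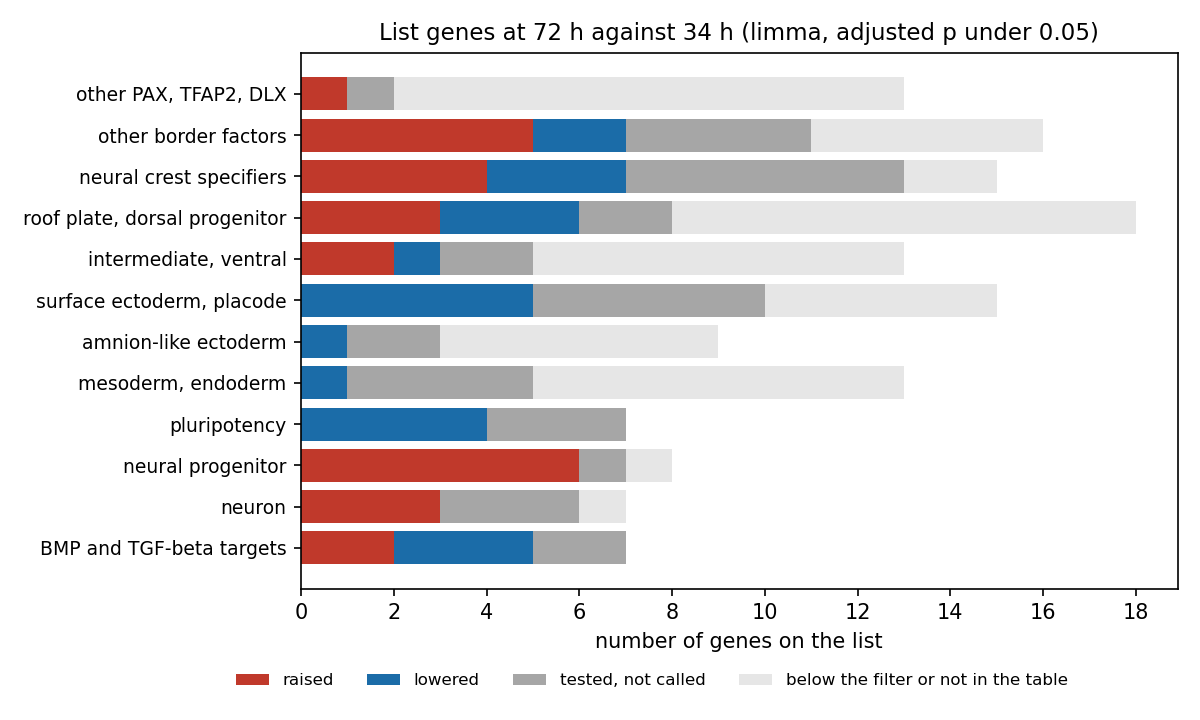
Number of genes on each of 12 lists (horizontal axis) that were raised, lowered, tested without a call, or below the filter or without a row at 72 h against 34 h by limma. Neural progenitor markers had 6 raised and 0 lowered, and surface ectoderm and placode markers 0 raised and 5 lowered.

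Targets of BMP and related signals moved in both directions. Of 7 such genes, all tested, 2 rose and 3 fell at 72 h against 34 h, where 12.7% of all tested genes were raised and 11.3% lowered. ID2 rose from 26.8 ± 3.57 to 125 ± 7.03 TPM (2.18 ± 0.11, limma adjusted p 1.132e-05) and was already raised at 42 h (1.16 ± 0.11, limma adjusted p 0.00143). ID1 held 5.90 and 5.19 TPM in the 34 h pair and 3.15 and 3.11 TPM in the 72 h pair; its call (-0.66, limma adjusted p 0.0397) was lost under 9 of 18 alternatives. ID3 had between 195 and 412 TPM and no called change.

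Genes whose levels ran most like those of the changed factors were picked by Pearson correlation of log2(TPM + 1) over the 8 libraries, among 1495 tested genes with a mean of at least 5 TPM at some time and a range of time point means of at least 1 on the log2 scale. For PAX3 they were DLK1 (0.994), LIX1L (0.994) and SMOC1 (0.991), and for PAX6 they were SMOC1 (0.987), HOXB1 (0.986) and GALP (0.985). DLK1 had mean levels of 2.37, 4.85, 9.83 and 229 TPM at the 4 times, and SMOC1 3.18, 4.69, 5.90 and 86.5 TPM. For MSX1 the nearest genes were PRRX1 (0.988), CXorf40A (0.987) and SKAP2 (0.987), and PRRX1, another homeodomain gene, had means of 0.0251, 2.84, 5.76 and 2.92 TPM. For MSX2 they were IER5L (0.991), FZD2 (0.989) and CNTFR (0.987), and the WNT receptor gene FZD2 had means of 63.7, 94.5, 116 and 129 TPM. Among the 3 genes listed for each, the PAX genes and the MSX genes had none in common, and neither had MSX1 and MSX2.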

How the data were processed

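Poly(A) RNA of 8 ESI017 libraries, 2 at each of 4 time points, was compared. The authors deposited TPM per Ensembl gene, 1 column per library; Salmon 1.9.0 and GRCh38 are named in the submitters' processing notes, and the annotation is not given in the sources used here. TPM keeps no read number, so depth is unknown and no counting interval was computed. The 37951 rows were summed by symbol, filtered at 1 TPM in at least 2 libraries, taken as log2(TPM + 1), and fitted with 1 mean per time point over all libraries in limma 3.58.1 (R 4.3.3, variance with a mean trend, Benjamini-Hochberg adjustment over 14908 genes, two-sided, threshold 0.05). A joint fit leaves 4 residual degrees of freedom against 2 for a pair of time points; with 2 libraries a group, the smallest exact permutation p is 0.333. The procedure was tested on simulated data with changes planted in genes of mean log2(TPM + 1) above 2. PAX3, PAX6, MSX1 and MSX2 lie below that mean, so the simulation does not cover them. Positions are from GENCODE 29. The members, the 12 other lists (131 genes, 80 tested) and the tests were chosen with earlier results of these data known. Named genes are the 9 factors, list genes, and the 3 genes best correlated with each changed factor; MSX2P1 was chosen after its values were seen, and some list genes are not reported here. Replicate numbers pair libraries because the labels call them batches; replicate differences correlated across genes at 0.195 (34 h with 50 h), 0.142 (42 h with 50 h) and 0.0949 (34 h with 42 h), and 72 h correlated at -0.0445, -0.0779 and -0.104 with the 3 earlier times. Alternatives changed the pseudocount, filter, scaling, variance trend, libraries fitted, replicate block, row summing and minimum change. The minimum change was tested against 1 on the log2 scale and not against no change. The quoted ranges of adjusted p therefore hold both kinds of test.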

Additional observations from a re-analysis of the deposited data

How the results depend on the processing

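The number of the 9 factors called was 1, 2 and 4 at 42, 50 and 72 h against 34 h, 2 at 72 h against 50 h, 0 at 50 h against 42 h and 4 by the F-test. At 50 h against 42 h it was 0 under every alternative run. A pseudocount of 0.1 moved 72 h against 50 h to 0; no filter on low values, or the compared time points alone, moved 50 h against 34 h to 1. A filter at a mean of 5 TPM, which keeps only TFAP2C of the 9, gave 0 throughout and 28 list genes at 72 h against 34 h. Testing for changes beyond 1 on the log2 scale gave 0, 1 and 1 factors against 34 h and 0 at 72 h against 50 h, and it ended most calls of list genes with changes near or under 1. Without 1 library at a time, the counts ran from 0 to 1 at 42 h against 34 h, 1 to 2 at 50 h, 4 to 5 at 72 h and 0 to 2 at 72 h against 50 h. The 0 at 42 h came without replicate 2 of 42 h. List genes called were 18, 33 and 47 at 42, 50 and 72 h against 34 h, and 8 to 17, 16 to 33 and 38 to 47 without 1 library; the lowest counts came without replicate 2 of 34 h, and the other counts lower by 1.5 times or more came without replicate 1 of 34 h (11 at 42 h, 17 at 50 h), the 42 h replicates (10 and 12 at 42 h) and replicate 1 of 50 h (19 at 50 h). With the replicate block the factors called were again 1, 2, 4, 0 and 2, the same calls gene by gene, and 18, 31 and 47 list genes; the block changed no call printed for a single gene. Differences of TFAP2C and PAX6 that had no call changed sign: without 1 library TFAP2C ran from -0.78 to 0.062 at 42 h and from -0.48 to 0.36 at 50 h against 34 h, and PAX6 from -0.14 to 0.24 at 50 h against 42 h. Rescaling libraries by their median log ratio changed no count of factors, but over all genes the share of calls that were raised went from 64.3% of 14 to 47.4% of 19 at 50 h against 42 h (45% of 20 with quantile normalization). The majority also turned at 72 h against 34 h, from 1900 raised and 1678 lowered to 1592 and 1960, and at 50 h against 34 h, from 525 and 408 to 457 and 500. The depth is unknown, which limits how well differences can be read in the 4 factors below 1 TPM.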

Other observations

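Single libraries stood apart for PTF1A and ZIC1, and both 50 h libraries for TFAP2E. PTF1A, a dorsal progenitor factor of the hindbrain and spinal cord, had 2.14 TPM in replicate 2 of 42 h and was listed at 0 in the 7 other libraries. ZIC1 had 5.33 TPM in that library and 1.85 TPM in replicate 1 of 42 h, against 0.184 to 1.84 TPM in the 6 others, and no called change. TFAP2E, a further AP-2 gene, had 0.751 and 0.778 TPM at 50 h and at most 0.317 TPM in the other libraries.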
